A study of Mus musculus with 100 samples.

Results

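The promoters of the oxidative phosphorylation genes were described in ChIP-seq tables from mouse bone marrow-derived macrophages (BMDMs) and osteoclast cultures. Members were regions within 2000 bp of a transcription start site (TSS) whose nearest gene had a name beginning with Nduf, Sdha, Sdhb, Sdhc, Sdhd, Uqcr, Cox4, Cox5, Cox6, Cox7, Cox8 or Atp5. This name rule found 86 genes of the 18524 named in the 15 tables, and 13277 genes had any region within 2000 bp of a TSS. It found 717 of 610301 regions, between 20 in the Fosl2 table and 70 in the H3K27ac table of WT and NKO cells. The rule uses names and positions and no measured value. It also takes in the assembly factors Ndufaf and Sdhaf, and Atp5s, which is not one of the subunits needed for catalysis. A region is given to the nearest TSS, so a promoter shared with a neighbouring gene cannot be assigned to either gene by these data.

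Oxidative phosphorylation passes electrons from NADH and succinate through complexes I to IV of the inner mitochondrial membrane to oxygen, and ATP synthase (complex V) uses the resulting proton gradient to make ATP. All but a few of its subunits are encoded in the nucleus and expressed in nearly every cell. PGC1β and its relative PGC1α are coactivators best known for raising such genes through nuclear receptors of the estrogen-related receptor (ERR) family and through NRF1. In macrophages, stimulation of Toll-like receptor 4 is known to shift energy supply from respiration towards glycolysis. H3K27ac is an acetyl mark of active promoters and enhancers, p300 writes it and histone deacetylases such as HDAC3, a partner of the corepressor NCoR, remove it.

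BMDMs were stimulated with KLA (Kdo2 lipid A, an agonist of Toll-like receptor 4) or left with vehicle (Veh). KLA was given for 6 h where the labels name a time, and the PGC1β table with DMSO and the NCoR libraries with ERKi name none. The vehicle groups were not alike in their labels. They carry 6 h for H3K27ac with DMSO, PU.1, p65, HDAC3, Fosl2 and NCoR, 0 h for p300 and no time in the other tables. The labels give C57BL/6 for all libraries, those of NKO and Pgc1b flox cells included. In the table of WT and NKO cells, floxed Ncor mice without Cre served as WT, by the study's methods. Of the 4 ERK1 libraries of osteoclast cultures, 3 are marked NCoRWT in their labels. NKO cells lacked NCoR through a LysM-Cre transgene acting on floxed Ncor alleles, and the labels' Pgc1b flox and Pgc1b flox Cre cells differed likewise in LysM-Cre acting on floxed Pgc1b. LysM-Cre is active in cells of the myeloid lineage, so a few cells may escape deletion. In the experiments with RGFP966 (an inhibitor selective for HDAC3), and in the PGC1β experiment with the ERK inhibitor LY3214996 (ERKi), cells had DMSO or the inhibitor. The NCoR libraries with ERKi are compared here with Veh and KLA libraries whose labels name no DMSO. Osteoclast cultures were profiled as precursors before RANKL (day 0) and on day 4 of RANKL. By the study's methods, these days of RANKL served to differentiate the precursors to osteoclasts. The factors were PGC1β, NCoR, HDAC3, ERK1, p300, the NF-κB subunit p65, the AP-1 subunit Fosl2 and the myeloid factor PU.1.

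Each group held 2 libraries, and the labels do not say that they came from separate animals, so p-values measure only the spread between these libraries. The 70 libraries held 4.3 to 21.5 M tags (median 13.7 M). Values below are tags per 10 M (10000000) of a library's total unless another scale is named. A region was called higher or lower where the edgeR quasi-likelihood F-test, with Benjamini-Hochberg adjustment across the whole table, gave p under 0.05 and the change was over 2-fold. Total-tag scaling was used for calls, and values with TMM factors, which centre the bulk of regions near 0, are given for many results where they differ. H3K27ac windows lay at all 6 macrophage markers in the RGFP966 and Pgc1b tables and at none of the T cell, B cell, epithelial or fibroblast markers. Only S100a8 of the neutrophil markers had a window. In the table of WT and NKO cells, regions lay at the macrophage markers Spi1, Cd68 and Itgam but not at Csf1r, Adgre1 or Lyz2. That table also had a region at the osteoclast marker Ocstamp (8.33 to 48.7 tags over its libraries). It had none at the T cell, B cell, neutrophil, epithelial or fibroblast markers. A label conflict was found in ERK1 day 4 replicate 2, whose description gives another replicate number and a date that the other 3 ERK1 libraries of that table do not carry. In these bulk libraries, fewer cells carrying a mark and less mark per cell cannot be told apart.

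Promoter sequences were taken from RefSeq (GRCm38.p6) for the 72 of 86 genes that matched, 250 bases before to 50 after the start. The 7 below are the 110 bases just before the start, 5′ to 3′ on the gene's strand, and none overlaps an exon. Cox8a (chr19:7217617-7217726, minus strand) and Ndufs8 (chr19:3912775-3912884, minus) are shown because their windows changed in the H3K27ac comparisons. Ndufb7 (chr8:83566648-83566757, plus) and Cox6a1 (chr5:115348959-115349068, minus) carry the ETS letters CCGGAAG or their complement. Atp5g2 (chr15:102671048-102671157, minus) and Ndufa8 (chr2:36049339-36049448, minus) carry the NRF1 letters GCGCATGCG on at least 1 strand. Ndufb4 (chr16:37654369-37654478, minus) carries the ERR letters TNAAGGTCA. Capitals mark these matches.
Cox8a: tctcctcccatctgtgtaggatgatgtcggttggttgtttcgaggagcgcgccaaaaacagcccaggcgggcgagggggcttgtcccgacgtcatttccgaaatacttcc
Ndufs8: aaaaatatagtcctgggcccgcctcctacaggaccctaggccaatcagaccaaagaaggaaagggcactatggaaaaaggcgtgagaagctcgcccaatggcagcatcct
Ndufb7: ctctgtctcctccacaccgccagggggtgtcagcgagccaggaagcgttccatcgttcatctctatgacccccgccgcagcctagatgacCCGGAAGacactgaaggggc
Cox6a1: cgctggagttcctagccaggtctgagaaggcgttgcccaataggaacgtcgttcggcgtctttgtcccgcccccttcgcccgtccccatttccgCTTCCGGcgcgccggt
Atp5g2: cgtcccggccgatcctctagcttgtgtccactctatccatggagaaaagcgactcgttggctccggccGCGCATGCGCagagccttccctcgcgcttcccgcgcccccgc
Ndufa8: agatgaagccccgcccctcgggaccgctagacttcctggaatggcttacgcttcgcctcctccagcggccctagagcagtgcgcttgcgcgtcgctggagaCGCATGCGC
Ndufb4: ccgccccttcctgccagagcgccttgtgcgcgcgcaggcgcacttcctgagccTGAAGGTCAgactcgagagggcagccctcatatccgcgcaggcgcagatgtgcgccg

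Motif letters were counted on both strands of the promoters of 300 bases and compared with the promoters of all 27025 RefSeq genes. The NRF1 letters GCGCATGCG were in 10 of 72 promoters (13.9%), against 1.95% of all genes. The ETS letters CCGGAAG were in 20 (27.8%, against 9.93%). The YY1 letters AAGATGGC were in 10 (13.9%, against 3.19%). The ERR letters TNAAGGTCA were in 3 (4.17%, against 1.43%). At least 1 of the NRF1, ETS and YY1 motifs was in 34 promoters (47.2%, against 14.1%), and 38 held none of them. The letters of the inducible factors were near the level of all genes: AP-1 TGANTCA in 9.72% against 8.97%, NF-κB GGNATTTCC in 1.39% against 1.49% and PU.1 GAGGAAGT in 4.17% against 3.69%. In promoters of cytosolic and mitochondrial ribosomal protein genes, the ETS letters were in 36.6% and 37.7%, the NRF1 letters in 4.23% and 10.1% and the YY1 letters in 8.45% and 17.4%. These are matches of letters and not binding sites, and no test was made.

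Factor regions at these genes sat on the start site itself. The 517 member regions of the factor tables, with macrophages and osteoclast cultures pooled, fell into 105 sites (overlap of at least 1 bp) of 78 genes. Of these sites, 74 lay within 250 bp of the TSS and 31 farther, up to 2000 bp. PGC1β had regions at 74 sites, NCoR at 57, p300 and p65 at 56 each, PU.1 at 45, HDAC3 at 44, ERK1 at 40 and Fosl2 at 20. The PGC1β and NCoR counts also drew on the tables with ERKi, and the ERK1 and p300 counts on those of osteoclast cultures. The other factors had the KLA table only. In the KLA tables alone, PGC1β had 47 members among 7741 regions within 2000 bp of a TSS and NCoR 54 among 10977. For p65 there were 56 among 10397, for p300 47 among 10797, for HDAC3 45 among 10043 and for PU.1 45 among 10459. ERK1 had 30 among 6468 and Fosl2 20 among 4955. Of the PGC1β members of the KLA table, 85.1% lay within 250 bp of the TSS, against 50.3% of all PGC1β regions within 2000 bp. The shares were likewise higher for p65 (73.2% against 51.2%), PU.1 (68.9% against 43.4%) and H3K27ac in the RGFP966 and Pgc1b tables (87.7% against 68.8%). Of these PGC1β members, 17% held the NRF1 letters within a window of 200 bp, against 2.33% of PGC1β regions within 2000 bp of a TSS and 0.469% of all. The AP-1 letters went the other way, with 2.13%, 9.09% and 17.5%. These motif shares are not matched for distance from the TSS, in which the lists differ as given above.

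Few sites held every factor. All 8 factors had regions at 5 sites: Cox5a at -92 bp, Sdhb at +8 bp, Atp5o at -1754 bp, and Ndufs8 at -114 and -1944 bp. At the Ndufs8 site at -114 bp, the ERK1 regions were those of the osteoclast cultures only. That site joins separate regions, such as those of HDAC3 at +277 and -181 bp. Cox5a is a subunit of cytochrome c oxidase (complex IV), Sdhb the iron-sulfur subunit of succinate dehydrogenase (complex II), Atp5o a stalk subunit of ATP synthase and Ndufs8 an iron-sulfur subunit of complex I. A single factor was listed at 23 sites and 6 or more at 28. Ndufs8 and Sdhb had members in all 15 tables and Atp5d in 14. At the other end, Ndufa2, Ndufa3, Ndufa8, Ndufaf1, Ndufaf2, Ndufaf8, Sdha and Uqcrh had a member in 1 table only. By role, the median gene of complex V was in 9 tables, of complex I in 8, of complexes II and IV in 7 and of complex III in 6.

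HDAC3 inhibition gave the clearest pattern of the H3K27ac data. With RGFP966 in KLA-stimulated cells, 28 of the 63 tested windows of 1000 bp (44.4%) were lower than with DMSO and KLA, and 0 were higher. Over all 25045 windows the background was 9.53% lower and 26.9% higher, and over those within 2000 bp of a TSS it was 23.2% lower and 6.56% higher. The median log2 fold change was -0.88 over the members, -0.57 over windows within 2000 bp and 0.39 over all windows. With TMM factors the members' median was -1.22 and 40 were lower, so the direction held on both scalings. The members' share of all tags in windows was 0.254% and 0.241% with DMSO and KLA, 0.131% and 0.133% with RGFP966, and 0.196% and 0.195% with DMSO and Veh. The count of 28 fell to 18 without DMSO KLA replicate 1.

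The lowest p-values came from subunits of 3 complexes. At Ndufb5, an accessory subunit of complex I (chr3:32736511-32737511, -52 bp), H3K27ac was 90.5 and 107 tags in the DMSO Veh libraries and 122 and 108 with DMSO and KLA. With RGFP966 and KLA it was 26.99 and 25.1 tags (log2 fold change -2.14 ± 0.27, SE; adjusted p = 7.15e-14, edgeR). Both RGFP966 libraries thus lay below all 4 libraries without the inhibitor. At Cox8a, a subunit of complex IV (chr19:7217155-7218155), the mark was 49.0 and 84.6 tags with Veh, 144 and 113 with KLA, and 40.2 and 32.5 with RGFP966 and KLA (-1.83 ± 0.25, adjusted p = 1.71e-11). Here the RGFP966 libraries lay below the Veh libraries as well. Atp5j, coupling factor 6 of ATP synthase (-9 bp), had 238 and 234 tags with Veh, 225 and 233 with KLA, and 89.5 and 80.6 with RGFP966 and KLA (-1.43 ± 0.22, adjusted p = 9.9e-10).

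The term core subunits stands here for a chosen list from each complex, accessory ones such as Cox4i1 and Cox8a included. These subunits were part of this pattern. Of their 20 windows, 10 were lower and all 20 fitted values were below 0 (median -0.998, and -1.34 with TMM factors). Ndufs1, the largest complex I subunit, had 290 and 203 tags with DMSO and KLA and 101 and 90.1 with RGFP966 (-1.37 ± 0.21, adjusted p = 2.32e-09). Cox4i1 of complex IV had 124 and 102 against 39.5 and 35.9 tags (-1.58 ± 0.25, adjusted p = 5.26e-09). Sdhb had 115 and 94.2 against 46.1 and 58.3 (-1.01 ± 0.24, adjusted p = 0.000128, edgeR). The 2 groups did not overlap at any of these 3 genes. Sdhb was under 2-fold without DMSO KLA replicate 1 (-0.85) or RGFP966 KLA replicate 1 (-0.85). Without DMSO KLA replicate 1, Ndufs8 (-0.93), Atp5c1 (-0.99) and Cox7c at +302 bp (-0.79) were also under 2-fold, and Cox5b was without RGFP966 KLA replicate 1 (-0.94).

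**Figure D1:**
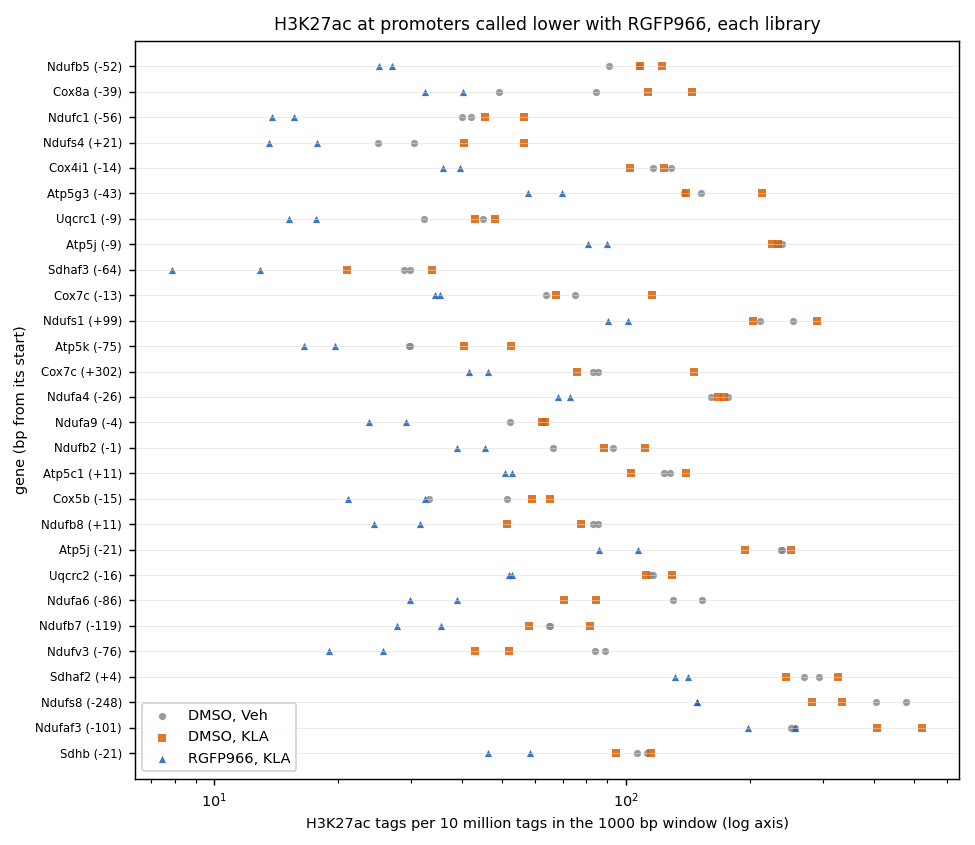
H3K27ac at the 28 member windows called lower with RGFP966, in tags per 10 M on a log axis, with 1 point per library for DMSO Veh (grey circles), DMSO KLA (orange squares) and RGFP966 KLA (blue triangles). At each window, picked by its call on these same libraries, both blue triangles lie below both orange squares.

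The lowered windows spread over all the complexes. Roles were taken from the beginnings of gene names, which put Ndufa4 with complex I. Complex I had 12 of 24 windows lower (median -0.99), complex IV 5 of 8 (-1.29), complex V 5 of 13 (-0.86), complex III 2 of 6 (-0.83) and complex II 1 of 2 (-0.94). Complex II assembly factors had 2 of 4 lower (-0.90) and complex I assembly factors 1 of 6 (-0.27). The 28 windows belong to 26 genes, since Atp5j and Cox7c have overlapping window pairs. The window nearest the limit inside was Sdhb (-1.01) and outside Uqcrfs1, the Rieske protein of complex III (-0.99 ± 0.26, adjusted p = 0.000337, edgeR). Of windows within 250 bp of the TSS, 27 of 57 were lower, and of those farther away 1 of 6. For other housekeeping families, 23 of 57 windows of cytosolic ribosomal protein genes (median -0.84) and 12 of 46 of mitochondrial ones (-0.78) were lower. The families were not tested against each other.

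Some members were not lower with RGFP966. Atp5o at -1721 bp had a log2 fold change of -0.13 and Ndufa5 of 0.06. Ndufaf4 at +1324 bp was the only member above 0.5 (0.81 ± 0.42, adjusted p = 0.0778, edgeR). Lowered members had more H3K27ac with DMSO and KLA (median 108 tags, range 27.4 to 464) than the 35 others (59.5, range 10.5 to 224). The same difference was seen over all windows within 2000 bp (125 against 72 tags), and the power of the test rises with the number of tags.

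Regions of HDAC3 itself overlapped 17 of the 28 lowered windows (60.7%) and 14 of the 35 others (40%). For p65 these counts were 22 (78.6%) and 18 (51.4%), for PU.1 18 (64.3%) and 14 (40%), and for NCoR 18 (64.3%) and 22 (62.9%). For p300 they were 16 (57.1%) and 15 (42.9%), for ERK1 8 (28.6%) and 14 (40%), and for Fosl2 4 (14.3%) and 8 (22.9%). PGC1β regions overlapped 16 (57.1%) and 17 (48.6%) in the KLA table and 22 (78.6%) and 24 (68.6%) in the table with DMSO. Over all windows within 2000 bp, HDAC3 regions overlapped 55% of the lowered and 58.6% of the other windows. For p65 the shares there were 56.3% and 60%, and for PU.1 53.9% and 57.9%. For PGC1β they were 38.6% and 49.2% in the KLA table and 58.5% and 64.2% in the table with DMSO. For p300 they were 50.8% and 59.9%, for NCoR 57.5% and 61.5%, for ERK1 38.2% and 43.1% and for Fosl2 24% and 34.3%. Of the matched promoters, the ETS letters were in 8 of 23 with a lowered window and 4 of 26 without, and the YY1 letters in 5 and 2. The NRF1 letters were in 2 and 3. No test was made of these counts.

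KLA alone, in cells with DMSO, gave no call for H3K27ac at these windows by total tags. None of 63 windows was higher or lower (background 6.73% higher and 28.1% lower), while 18 had an unadjusted p-value under 0.05 in edgeR. The median was 0.07 over the members, -0.17 over windows within 2000 bp and -0.42 over all. With TMM factors the median of all windows was 0, the members' median was 0.49 and 8 were higher, among them Ndufaf3, Cox8a, Ndufab1, Uqcrq, Ndufs4, Atp5k and Ndufaf5. DESeq2 called 10. Ndufaf3, an assembly factor of complex I (chr9:108566943-108567943), had the lowest p-value, with 252 and 256 tags with Veh and 522 and 406 with KLA (0.87 ± 0.20, adjusted p = 3.45e-05). With RGFP966 it had 257 and 197 tags (-1.03 ± 0.19, adjusted p = 8.48e-07, edgeR). The KLA groups of both comparisons are the same 2 libraries. Without DMSO Veh replicate 2, DMSO KLA replicate 1 or DMSO KLA replicate 2 the count of calls was 2, 4 and 3.

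PGC1β was present at these promoters before stimulation and stayed there after KLA. Its median level over the 47 members of the KLA table, per kb of region, was 113 tags per 10 M with Veh and 114 with KLA. For all PGC1β regions within 2000 bp of a TSS it was 91.9 and 93.7, and 28 of the 47 members were above that median in each group. None was called higher or lower with KLA (background 16.4% higher and 6.35% lower). In edgeR 5 had an unadjusted p-value under 0.05, and DESeq2 called 1. Fitted values were above 0 at 21 members and below 0 at 26. The median was -0.08 over the members, -0.08 over regions within 2000 bp and 0.06 over all. With TMM factors the members' median was -0.22.

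The highest PGC1β level per kb of any member was at the Cox5a start site (-75 bp), with 62.3 and 56.7 tags with Veh and 62.3 and 57.2 with KLA (0.00 ± 0.30). These 4 values overlap fully. Sdhb had 44.1 and 38.6 against 44.8 and 45.2 tags (0.13). Ndufv1, the NADH-binding subunit of complex I, had 41.7 and 62.8 against 63.3 and 58.9. None of the 17 core subunits was called. Lower fitted values included those at Ndufs8 at +311 bp, with 47.0 and 42.3 against 22.9 and 22.3 tags (-0.98 ± 0.37, adjusted p = 0.0622), and at Ndufb5, with 11.8 and 19.1 against 4.4 and 5.1 (-1.67 ± 0.63, adjusted p = 0.0625, edgeR). The groups did not overlap at either, and both were called lower with TMM factors (adjusted p = 0.0208 and 0.0368). Atp5o at -1759 bp had 18.2 and 20.9 against 45.9 and 34.9 tags (1.02 ± 0.39, adjusted p = 0.0648). Without PGC1b WT KLA replicate 1 the count of calls was 2, and without replicate 2 it was 5.

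**Figure D2:**
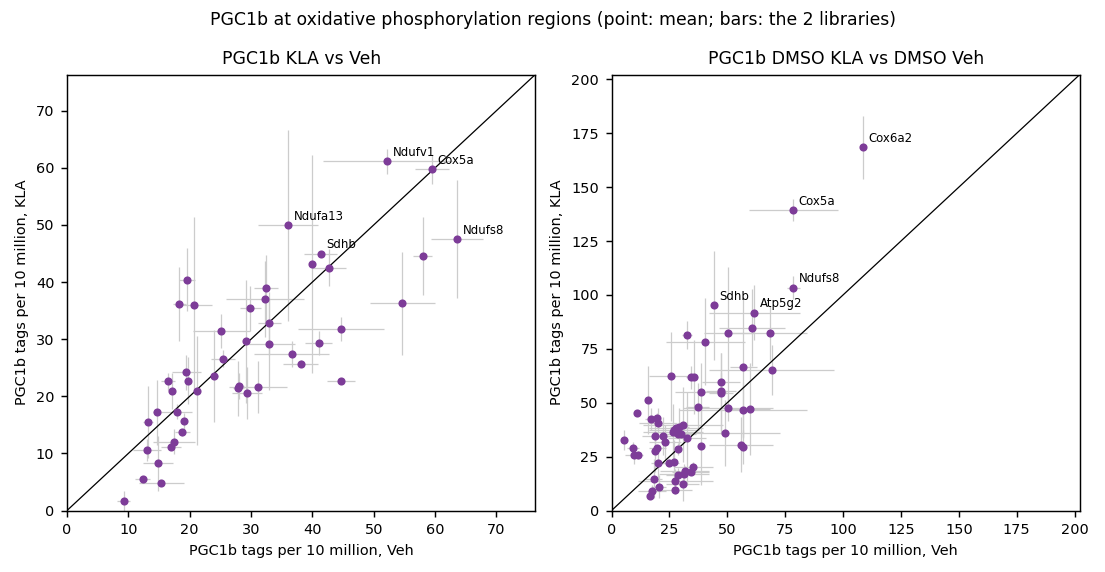
PGC1β at member regions in the KLA table (left) and the table with DMSO (right), in tags per 10 M, with the mean with KLA against the mean with vehicle. Each point is 1 region, the bars span the 2 libraries of a group, and the diagonal marks equal levels. On the left the 47 points lie on both sides of the diagonal, and on the right 42 of the 65 fitted values are above 0.

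In the separate experiment with DMSO, PGC1β was called higher with KLA at 2 of 65 members and lower at 0 (background 16.4% and 1.23%). Ndufa13, a complex I subunit also known as Grim19 (-767 bp), had 34.9 and 30.6 tags with Veh and 75.003 and 87.8 with KLA (1.30 ± 0.45, adjusted p = 0.0461). Atp5g1, the c subunit of ATP synthase (-277 bp), had 15.4 and 16.03 against 35.5 and 67.0 (1.71 ± 0.60, adjusted p = 0.0479, edgeR). The groups did not overlap at either. Both calls were lost with TMM factors (adjusted p = 0.221 and 0.166), with DESeq2 and with the replicate number as a block. They were also lost without DMSO Veh replicate 1, DMSO Veh replicate 2 or DMSO KLA replicate 2 (0 calls each), and without DMSO KLA replicate 1 the count was 1. The median was 0.35 over the members, 0.36 over regions within 2000 bp and 0.45 over all, and -0.09, -0.08 and 0.01 with TMM factors. By role it was 0.67 for complex V (10 regions), 0.55 for complex IV (13), 0.25 for complex I (27) and -0.38 for complex III (6).

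With the ERK inhibitor, PGC1β was called higher or lower at none of the 65 members (background 0.108% higher and 0.178% lower). In edgeR 4 had an unadjusted p-value under 0.05, and DESeq2 called 0. Cox5a had 59.3 and 97.6 tags with DMSO and Veh, 134 and 144 with DMSO and KLA, and 90.7 and 110 with ERKi and KLA. Sdhb had 44.7 and 43.7, then 120 and 70.0, then 70.4 and 46.5 tags. At both genes the ERKi libraries lay between the other 2 groups or overlapped them. The median over the members was -0.23, and 0.00 with TMM factors. This comparison and the one before share the DMSO KLA libraries.

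Deletion of Pgc1b gave a single window called over 2-fold for H3K27ac. Between Pgc1b flox Cre and Pgc1b flox cells with Veh, 1 of 63 windows was lower and 0 higher (background 0.29% and 0.107%), and with KLA also 1 was lower and 0 higher (6.81% and 0.702%). In both it was an intron window of Ndufaf4, an assembly factor of complex I (chr4:24898907-24899907, +1324 bp). It had 30.9 and 21.5 tags in flox Veh, 16.5 and 25.4 in flox KLA, 12.5 and 11.3 in Cre Veh and 10.1 and 10.4 in Cre KLA libraries. The Cre libraries lay below all flox libraries, at -1.14 ± 0.42 with Veh (adjusted p = 0.0456) and -1.02 ± 0.44 with KLA (adjusted p = 0.0494, edgeR). These are low counts, and both calls were lost with TMM factors (adjusted p = 0.293 and 0.364) and with the replicate number as a block. The Veh call was lost without any 1 of the 4 Veh libraries. The KLA call was lost without any 1 library of the table except flox KLA replicate 1.

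Smaller differences between the genotypes went 1 way by total tags. With Veh, 60 of 63 fitted values were below 0 (median -0.32), and with KLA 58 were (median -0.37). All windows had medians below 0 at -0.20 and -0.38. With TMM factors the members' medians were -0.11 and 0.03. Cox8a with Veh was at -0.60 (adjusted p = 0.000711) by total tags and at -0.40 (adjusted p = 0.124, edgeR) with TMM factors.

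KLA lowered H3K27ac at 3 windows in each Pgc1b genotype by total tags. In Pgc1b flox cells 3 were lower and 0 higher (background 25.6% and 5.22%), and in Pgc1b flox Cre cells 3 and 0 (32.5% and 4.18%). Ndufa13 at -774 bp was lower in both. It had 152 and 134 tags in flox Veh, 57.6 and 53.3 in flox KLA, 109 and 133 in Cre Veh and 47.0 and 55.4 in Cre KLA libraries. Veh and KLA did not overlap in either genotype (-1.37 ± 0.18, adjusted p = 3.28e-13, and -1.23 ± 0.19, adjusted p = 4.61e-10, edgeR). The others were Ndufv3 (-1.09) and Ndufaf7 (-1.31) in flox cells and Ndufs8 (-1.27) and Ndufb8 (-1.15) in Cre cells. With TMM factors all 6 were under 2-fold, and the called windows were instead higher. These were Ndufaf3 (1.07) and Atp5o at -1721 bp (1.06) in flox cells, and Ndufaf3 (1.196), Uqcrfs1 (1.10) and Atp5k (1.01) in Cre cells. The members' medians were -0.20 and -0.22 by total tags and 0.23 and 0.39 with TMM factors. At Ndufaf3 the mark was 362 and 405 tags in flox Veh, 602 and 587 in flox KLA, 312 and 301 in Cre Veh and 460 and 458 in Cre KLA libraries, so KLA lay above Veh in each genotype. Of the difference between the 2 responses, 0 of 63 windows was called (background 0.77% higher and 4.6% lower), with 12 at an unadjusted p-value under 0.05 in edgeR and 0 calls by DESeq2.

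The table of WT and NKO cells was counted over shorter regions, with only 5.5 to 7.2% of tags in them. KLA in WT cells gave 1 higher and 1 lower call among 61 tested members (background 6.49% and 3.72%). Ndufa13 at -734 bp had 53.6 and 25.5 against 20.1 and 17.9 tags in WT cells (-1.03 ± 0.37, adjusted p = 0.0473, edgeR), and the groups did not overlap. The Ndufa13 call was lost with the block (adjusted p = 0.0573) and without WT Veh replicate 1, either WT KLA library or NKO KLA replicate 1.

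No member was called in the other comparisons of that table. For KLA in NKO cells the background was 2.75% higher and 7.96% lower, and 5 members had an unadjusted p-value under 0.05. For NKO against WT it was 0.973% and 0.027% with Veh (10 members) and 0.4% and 0.389% with KLA (3 members). For the difference between the KLA responses it was 0.027% and 0.67% (9 members), all in edgeR, and DESeq2 called 0 in each of the 4. The members' median was 0.25 for KLA in WT cells, 0.00 for KLA in NKO cells and 0.34 for NKO against WT with Veh. Over all regions these medians were 0.13, -0.20 and 0.30. Over the core subunits, the median of NKO against WT with Veh was 0.50 by total tags and 0.19 with TMM factors. For the difference between the KLA responses, their median was -0.46 by total tags and -0.12 with TMM factors. With NKO Veh replicate 2 left out, 1 member was called for KLA in NKO cells, 1 for NKO against WT with Veh and 3 for the difference between responses. With NKO KLA replicate 1 left out, 1 was called for KLA in NKO cells.

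The counts of higher calls with KLA were below the background at these promoters for p65 and p300. For p65, 8 of 56 members were higher and 8 lower with KLA, where the background was 57% higher and 5.43% lower. The median was -0.54 over the members, 0.15 over p65 regions within 2000 bp and 1.46 over all. With TMM factors 2 were higher and 41 lower (median -1.76, against 0.24 over all). For p300, 3 of 47 were higher and 10 lower (background 42.1% and 12.9%), the higher ones at Ndufs4, Sdhaf1 and Ndufc2, with medians of -0.66, -0.26 and 0.65, and 2 higher and 30 lower with TMM factors. Both scalings thus placed the members' medians below those of all regions. The p65 count of 16 was 25 without Veh replicate 1, 4 without KLA replicate 1 and 3 without KLA replicate 2, and the p300 count of 13 was 6 without KLA replicate 2.

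Position divided the members, in a split at 250 bp from the TSS that was chosen after the values were seen. For p65, 1 of 41 start-site regions was higher and 7 lower, and 7 of 15 farther regions were higher and 1 lower. For p300 the counts were 0 and 9 of 33, and 3 and 1 of 14. HDAC3 had 0 and 2 of 34, and 5 and 1 of 11, and NCoR 1 and 2 of 39, and 2 and 1 of 15. Among all p65 regions within 2000 bp of a TSS, 753 of 5326 start-site regions were higher and 817 lower, against 2281 and 485 of 5071 farther ones. For p300 these counts were 413 and 942 of 5023, and 1842 and 948 of 5774. They were 369 and 300 of 4914, and 1318 and 513 of 5129, for HDAC3, and 370 and 602 of 5256, and 1199 and 944 of 5721, for NCoR. No test was made of the split. With TMM factors the farther p65 members were 2 higher and 4 lower and the start-site ones 0 and 37.

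**Figure D3:**
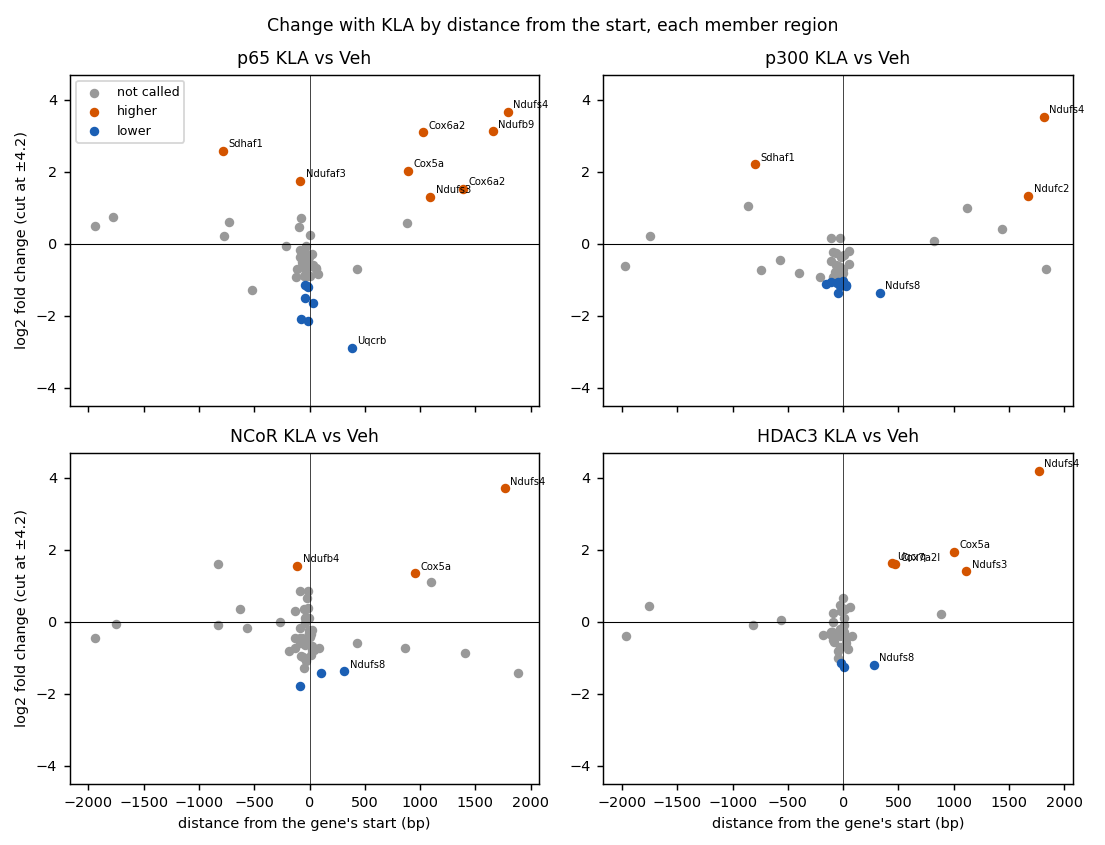
Log2 fold change with KLA (total-tag scaling) of p65, p300, NCoR and HDAC3 at member regions against distance from the TSS in bp, with called regions in colour. Higher calls lie mostly beyond 250 bp, such as Ndufs4 and Cox5a. Lower calls lie mostly at the start site, as do most members. Values are cut at ±4.2 on the log2 axis.

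By total tags, most of the higher calls of p65 (7 of 8), p300 (3 of 3), HDAC3 (5 of 5) and NCoR (2 of 3) lay farther than 250 bp from the start. An intron of Ndufs4, an accessory subunit of complex I whose loss causes Leigh-like disease in mice, had regions of p65, p300, NCoR and HDAC3 about 1.8 kb from the start. There p65 was 0.0 and 5.6 tags with Veh and 36.7 and 34.9 with KLA (adjusted p = 0.00205), and p300 was 1.9 and 5.9 against 48.1 and 42.7 (3.53 ± 0.50, adjusted p = 1.6e-05, edgeR). NCoR was 3.6 and 0.0 against 25.1 and 24.2 tags, and HDAC3 0.0 and 0.0 against 20.5 and 33.4, at least 25.2-fold higher over the floor of 3 tags per group. The NCoR and HDAC3 regions passed the filter of 4 tags through the KLA libraries alone, so they had to differ, and their values are a description although both are among the calls counted. Veh and KLA did not overlap for p65 or p300. The p65 and p300 calls held with TMM factors, and the p65 call was lost without either KLA library.

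The promoter side of Sdhaf1, an assembly factor of complex II, gained p65 and p300 about 0.8 kb upstream. There p65 was 7.0 and 10.3 tags with Veh and 53.4 and 49.9 with KLA (2.57 ± 0.46, adjusted p = 0.000589). With TMM factors it was 1.36 and still called. For p300 the values were 8.1 and 5.3 against 28.6 and 34.05 (2.21 ± 0.47, adjusted p = 0.000679, edgeR). An intron of Cox5a about 0.9 kb from the start had p65 at 11.4 and 15.8 against 52.1 and 58.8 tags (2.02, adjusted p = 0.00146), HDAC3 at 13.1 and 11.1 against 31.6 and 64.98 (1.94 ± 0.53, adjusted p = 0.0012) and NCoR at 15.5 and 11.8 against 43.7 and 26.3 (1.35, adjusted p = 0.044). No group overlapped there. The p65 call at Cox5a was lost with TMM factors (0.81) and without KLA replicate 2, the HDAC3 call without either Veh library, and the NCoR call without either KLA library.

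The p65 regions at these 3 sites are printed on the plus strand of GRCm38.p6, 5′ to 3′, to show which inducible motifs they hold. They are chr13:114386192-114386409 (Ndufs4 intron), chr7:30323035-30323283 (Sdhaf1) and chr9:57522000-57522252 (Cox5a intron). The Sdhaf1 region held the NF-κB letters GGNATTTCC, in capitals. Of 56 p65 members 1 (1.79%) held them within a window of 200 bp, against 3.53% of all p65 regions. The Ndufs4 and Cox5a regions held none of the NF-κB, AP-1, PU.1 and ETS letters.
Ndufs4 intron: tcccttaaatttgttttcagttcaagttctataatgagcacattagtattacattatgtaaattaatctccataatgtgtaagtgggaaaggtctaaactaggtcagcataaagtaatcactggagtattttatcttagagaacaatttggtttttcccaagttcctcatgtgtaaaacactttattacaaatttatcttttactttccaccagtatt
Sdhaf1: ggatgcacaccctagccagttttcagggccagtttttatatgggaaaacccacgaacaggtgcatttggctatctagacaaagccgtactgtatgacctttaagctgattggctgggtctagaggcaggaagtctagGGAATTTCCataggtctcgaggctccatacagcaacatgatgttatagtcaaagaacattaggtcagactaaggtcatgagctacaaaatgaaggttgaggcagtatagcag
Cox5a intron: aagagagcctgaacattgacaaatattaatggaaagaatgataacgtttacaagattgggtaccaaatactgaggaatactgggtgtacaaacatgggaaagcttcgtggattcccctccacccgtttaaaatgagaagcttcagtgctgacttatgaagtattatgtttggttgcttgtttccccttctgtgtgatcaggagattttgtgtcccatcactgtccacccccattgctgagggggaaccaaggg

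Ndufaf3 was the start site with the most p65 after KLA. It had 61.3 and 59.7 tags with Veh and 192 and 213 with KLA (1.74 ± 0.23, adjusted p = 7.62e-05, edgeR). Its H3K27ac was described above. With TMM factors the p65 change was 0.52 and under 2-fold. The other p65 members called higher lay at Cox6a2 (+1031 and +1388 bp), Ndufb9 (+1660 bp) and Ndufs3 (+1092 bp).

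Most lower calls of p65, p300, HDAC3 and NCoR lay at start sites, as did most members of each of these factors. Ndufs6, an accessory subunit of complex I, lost 4 factors at its start site. There p65 was 119 and 104 tags with Veh and 24.04 and 25.997 with KLA (-2.15 ± 0.30, adjusted p = 0.000129), and NCoR was 57.4 and 91.8 against 23.5 and 19.4 (-1.80 ± 0.38, adjusted p = 0.00325). ERK1 was 33.0 and 41.6 against 7.4 and 4.1 tags (-2.66 ± 0.70, adjusted p = 0.0304), and HDAC3 47.3 and 78.0 against 26.4 and 31.6 (-1.14, adjusted p = 0.0247, edgeR). Veh and KLA did not overlap for any of the 4. The NCoR call was lost without KLA replicate 2, the ERK1 call without Veh replicate 2 or either KLA library, and the HDAC3 call without either Veh library and with the block (adjusted p = 0.0594).

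Ndufs8 lost corepressor and p300 about 0.3 kb inside the gene. NCoR was 137 and 153 tags with Veh and 58.3 and 53.3 with KLA (-1.38 ± 0.24, adjusted p = 0.00126), and no omission of a library ended this call. HDAC3 was 116 and 79.1 against 33.99 and 54.4 (-1.19, adjusted p = 0.00825), and p300 107 and 78.9 against 24.04 and 48.1 (-1.37 ± 0.30, adjusted p = 0.000793, edgeR). The groups did not overlap. The HDAC3 call was lost without either Veh library or KLA replicate 1 (-0.82), and p300 was under 2-fold without KLA replicate 1 (-0.95). H3K27ac in the window around the Ndufs8 start was 499 and 477 tags in flox Veh and 304 and 288 in flox KLA libraries (-0.72 ± 0.09, adjusted p = 4.15e-16, edgeR; -0.29 with TMM factors).

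Other start sites with less p300 were Ndufa6 (55.8 and 58.5 against 21.996 and 22.2 tags, -1.37, adjusted p = 0.000923) and Sdhc, a membrane anchor of complex II (72.7 and 74.9 against 40.4 and 30.3, -1.06, adjusted p = 0.0022, edgeR). The rest were Atp5c1, Ndufv2, Uqcrc1, Ndufa5, Ndufb6, Ndufa4 and Ndufa9. For p65 they were Ndufs3 (54.3 and 46.6 against 13.4 and 18.5, -1.66, adjusted p = 0.00457) and Ndufa4 (32.4 and 26.1 against 6.0 and 7.5, -2.10, adjusted p = 0.00522, edgeR), both lost without KLA replicate 1 (adjusted p = 0.0996 and 0.117) or replicate 2. The remaining lower p65 calls were Uqcrb (+383 bp), Atp5g3, Uqcrc2, Ndufaf1 and Atp5b. The Sdhc p300 call was lost without KLA replicate 2.

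**Figure D4:**
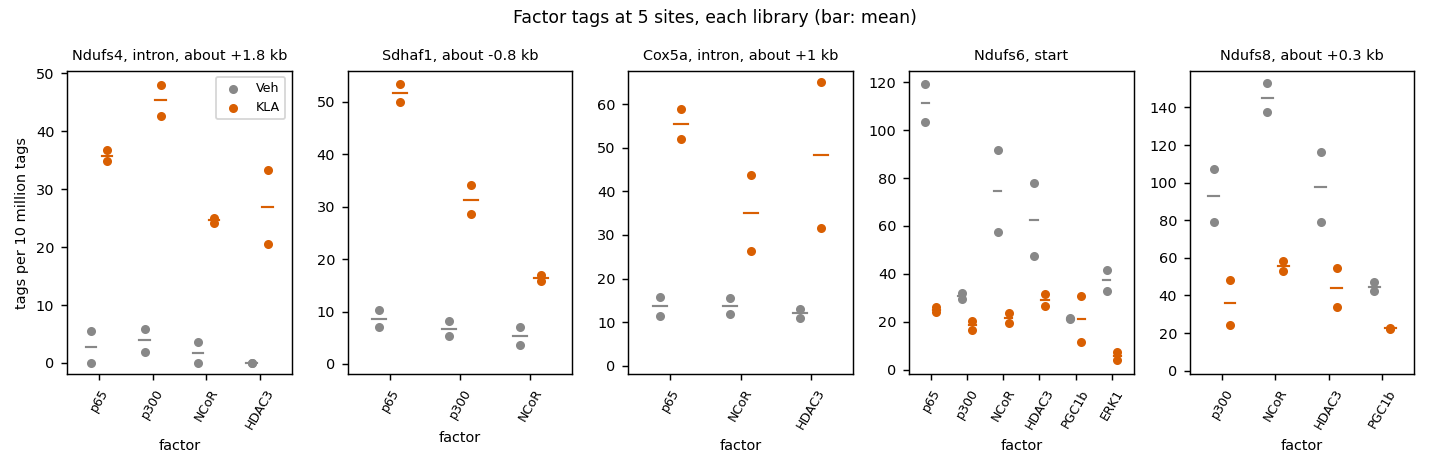
Tags per 10 M per library with Veh (grey) and KLA (orange) at 5 sites, for each factor with a region there, with a bar at the mean of the 2 libraries. The Ndufs4 intron, Sdhaf1 and Cox5a intron sites are higher with KLA. The Ndufs6 start and Ndufs8 +0.3 kb sites are lower, except for PGC1β at the Ndufs6 start. There PGC1β was 21.2 and 21.4 tags with Veh and 30.6 and 11.4 with KLA.

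NCoR was higher at 3 and lower at 3 of 54 members with KLA (background 23.4% and 16.7%), and HDAC3 at 5 and 3 of 45 (27.5% and 11.3%). Their medians were -0.38 and -0.29, against 0.10 and 0.27 over all regions. Besides the regions above, NCoR was higher at Ndufb4 (10.8 and 8.2 against 25.1 and 31.1 tags, 1.56, adjusted p = 0.0274) and lower at Ndufs1 (-1.43, adjusted p = 0.0211, edgeR). HDAC3 was higher at Uqcrq (+442 bp, 1.63), Cox7a2l (+472 bp, 1.60) and Ndufs3 (+1115 bp, 1.40), and lower at Cox5b (-1.27). With TMM factors, NCoR was also called lower at Ndufa4 and Ndufb2 and higher at Sdhaf1. HDAC3 was then also called lower at Ndufb7, Ndufb8 and Atp5g3. The NCoR count of 6 was 14 and 11 without Veh replicate 1 or 2, and 2 and 1 without KLA replicate 1 or 2. The HDAC3 count of 8 was 1 without either Veh library.

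NCoR was lower at 13 of 58 members with ERKi and KLA than with KLA, and higher at 0 (background 48.6% and 0.634%). The labels of the ERKi libraries carry another date than those of the KLA and Veh libraries, so inhibitor, date and solvent cannot be told apart. The median was -0.85 over the members and -1.20 over all regions. Atp5o at -1754 bp had 117 and 108 tags with Veh, 107 and 108 with KLA and 30.4 and 25.9 with ERKi and KLA (-1.93 ± 0.28, adjusted p = 0.000234). The Cox5a intron region had 43.7 and 26.3 tags with KLA and 4.2 and 3.4 with ERKi and KLA (-3.15, adjusted p = 0.00167, edgeR). The ERKi libraries lay below all others at both. With TMM factors all 13 calls were lost, the members' median was 0.31 and 3 were called higher, namely Ndufv3, Cox5b and Atp5j, so the direction over the members depends on the scaling. The count was 2 and 5 without NCoR WT KLA replicate 1 or 2. These KLA libraries are those of the NCoR comparison above.

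ERK1, Fosl2 and PU.1 gave few calls. ERK1 was lower at 1 of 30 members, Ndufs6, and higher at 0 (background 2.53% and 10.3%). Fosl2 was lower at 1 of 20 and higher at 0 (background 4.19% and 11.4%). That was Ndufb8 of complex I, with 32.4 and 29.4 tags with Veh and 0.0 and 3.5 with KLA. This region passed the filter through the Veh libraries alone, so its values are a description, and the call was lost with the block and without either Veh library. Without Fosl2 KLA replicate 1 or 2 the count was 3 and 9. PU.1 was called at 0 of 45 members (background 4.53% higher and 21.7% lower), with 15 at an unadjusted p-value under 0.05 in edgeR and 2 calls by DESeq2. Ndufs3 at +1118 bp had the largest PU.1 gain, with 42.4 and 38.0 against 63.5 and 66.3 tags (0.68 ± 0.19, adjusted p = 0.00088), and with TMM factors it (1.10) and Atp5k (1.02) were called higher. Without PU.1 KLA replicate 2 the count was 1.

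In osteoclast cultures on day 4 of RANKL against precursors on day 0, ERK1 was called at 0 of 21 members (background 2.33% higher and 0.0267% lower). An unadjusted p-value under 0.05 in edgeR was found at 5, and DESeq2 gave 0 calls. The median was 1.02 over the members and 1.00 over all regions, and 0.02 and 0.04 with TMM factors. Without ERK1 day 0 replicate 2 the count was 1. The day 4 group includes the library with the conflicting label and other date. For p300, 2 of 29 members were higher and 1 lower on day 4 (background 62.2% and 0.248%), and the median was 0.12 against 1.84 over all regions. Atp5g3, another c subunit gene of ATP synthase, had 7.0 and 6.4 tags on day 0 and 39.1 and 47.6 on day 4 (2.65 ± 0.65, adjusted p = 0.00457). Cox6a1 of complex IV had 43.1 and 91.6 against 14.7 and 18.1 (-1.98 ± 0.54, adjusted p = 0.00792, edgeR), and Ndufa10 7.9 and 6.4 against 27.4 and 22.7 (1.75, adjusted p = 0.0306). The days did not overlap at any of the 3. The gains at Atp5g3 (1.03) and Ndufa10 (0.13) were not called with TMM factors, which called 11 members lower. The count of 3 was 10 and 6 without day 0 replicate 1 or 2 and 0 without day 4 replicate 1 or 2.

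Isoforms known from particular tissues were mostly without regions. Of 8 such genes, Cox7a1 and Cox6a2, the isoforms of heart and skeletal muscle, and the hypoxia-induced Ndufa4l2 had members, and Cox4i2, Cox6b2, Cox7b2, Cox8b and Cox8c had none. Cox7a1 had the highest NCoR level per kb of any member with KLA, with 95.6 and 101 tags with Veh and 115 and 125 with KLA at -127 bp (0.28). Its H3K27ac was low in the WT and NKO table, between 2.08 and 19.2 tags over the 8 libraries. Cox6a2 at -1988 bp had the highest PGC1β level in the table with DMSO, with 108 and 109 tags with Veh, 154 and 183 with KLA and 131 and 191 with ERKi and KLA (0.64 ± 0.30, adjusted p = 0.144, edgeR). The ERKi and KLA groups overlapped. Ndufa4l2 at -1886 bp had 35.3 and 40.9 PGC1β tags with Veh and 25.1 and 26.3 with KLA (-0.56), and its H3K27ac window did not pass the filter on low counts in any table.

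**Figure D5:**
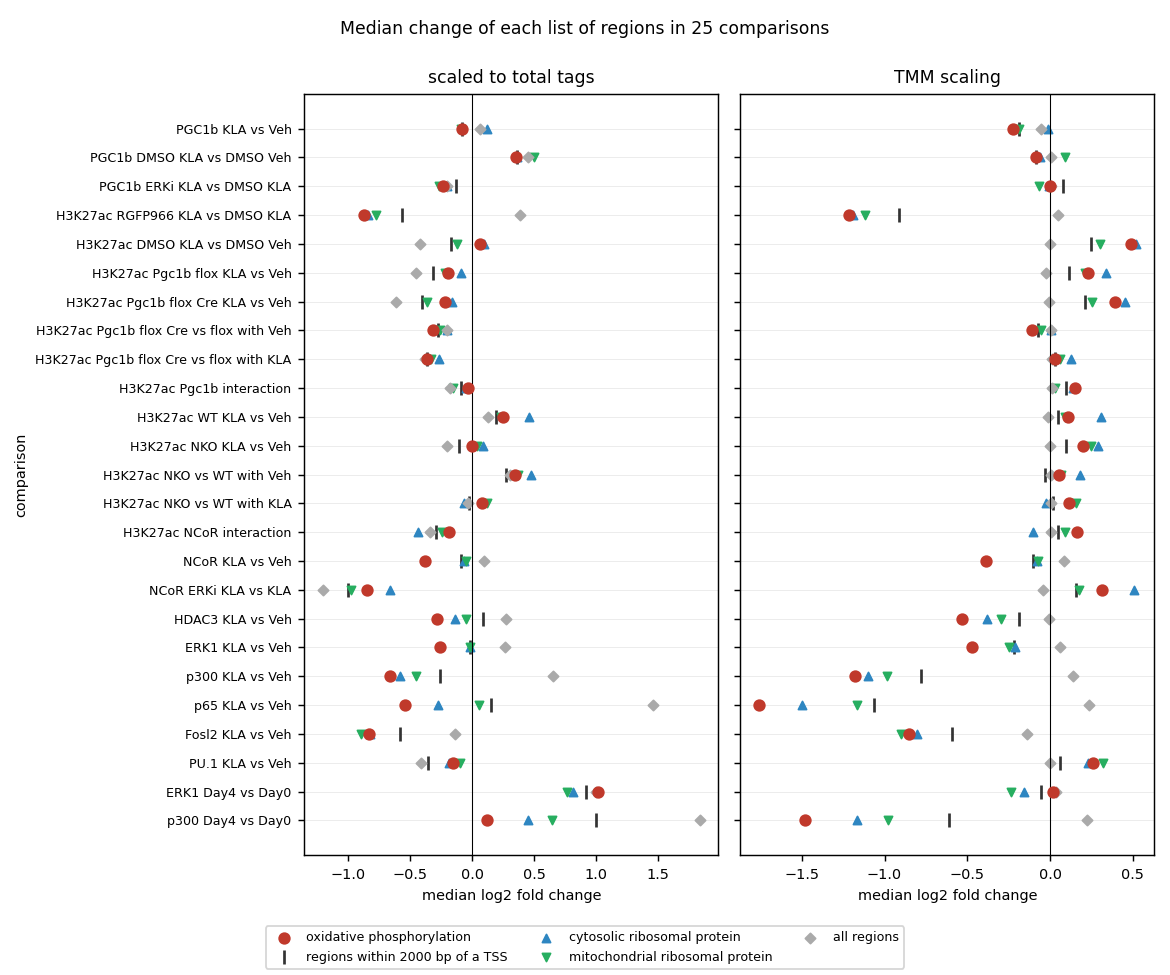
Median log2 fold change in each of the 25 comparisons for the oxidative phosphorylation members, cytosolic and mitochondrial ribosomal protein genes, all regions within 2000 bp of a TSS and all regions, with total-tag scaling (left) and TMM factors (right). The members lie below all regions for p65, p300 and RGFP966 in both panels, at -0.54 against 1.46 for p65 by total tags.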

How the data were processed

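Chromatin immunoprecipitation followed by sequencing was analysed in 70 libraries of 15 merged tables; 30 input libraries were not analysed here. The authors aligned reads to mm10 with Bowtie2, called peaks with HOMER, kept replicated regions by IDR and deposited raw tag counts per region. H3K27ac was counted over ATAC-seq regions. Versions were not given in the sources used here.

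Counts were scaled to 10000000 tags with the totals in the column headers. Regions needed 4 tags in at least 1 library for factors or 16 for H3K27ac. Calls used the edgeR 4.0.16 quasi-likelihood F-test in R 4.3.3, with 1 fit per table over all its groups and Benjamini-Hochberg adjustment over the table. Alternatives were TMM factors, DESeq2 1.42.0, no filter, the replicate number as a block and leaving out each library. The fitting was tested on simulated data. Library totals of 4.3 to 21.5 M tags limit the precision at sites with few tags. The regions named were core subunits, tissue isoforms and called members with the lowest p-values (up to 10 in each direction for PGC1β, RGFP966 and Pgc1b genotype, otherwise up to 3, and all where 5 or fewer were called). Other regions, such as Ndufs4 for p65, Ndufaf3 for H3K27ac with KLA and the remaining called regions listed by name, were chosen after their values were seen. Members and lists were chosen with earlier results of these data known. The start implied by a region's coordinates and its listed distance lay within 100 bp of a RefSeq start for 604 of 616 regions checked. Results of 1 gene are not reported here by name.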

Additional observations from a re-analysis of the deposited data

Results flagged for a closer look

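At 2 windows the H3K27ac response to KLA differed between the Pgc1b genotypes by the interaction term of edgeR. They were picked at an adjusted p-value under 0.05 without the fold limit, and the share of all windows passing this was not counted. Over 2-fold, no member was called in this comparison, where the background of all windows was 0.77% higher and 4.6% lower. At Ndufs8 (-248 bp) the mark was 499 and 477 tags per 10 M in flox Veh, 304 and 288 in flox KLA, 450 and 455 in Cre Veh and 178 and 196 in Cre KLA libraries. KLA lay below Veh in both genotypes, and the log2 fold change was lower by 0.55 in Cre cells (-0.5484 ± 0.127, adjusted p = 0.000252; -0.3623 and 0.0339 with TMM factors).

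At Atp5o (-1721 bp) it was 134 and 105 tags in flox Veh, 200 and 171 in flox KLA, 119 and 129 in Cre Veh and 111 and 130 in Cre KLA libraries. KLA lay above Veh in flox cells and overlapped it in Cre cells. The difference between the responses was -0.6585 ± 0.2076 (SE) on the log2 scale (adjusted p = 0.0119, edgeR), and -0.4725 with TMM factors, where it missed the threshold (adjusted p = 0.113).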

How the results depend on the processing

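The 28 H3K27ac windows lower with RGFP966 were all lower with TMM factors (40 calls) and DESeq2 (38). Scaling moved other counts of called members. With TMM factors and DESeq2 they were 2 and 1 for PGC1β with KLA, 0 and 0 for PGC1β with KLA and DMSO, 8 and 10 for H3K27ac with KLA and DMSO, 32 and 30 for p300, 43 and 42 for p65, 2 and 2 for PU.1, and 0 and 0 for Pgc1b flox Cre against flox with Veh and with KLA. No region called by total tags turned, but with TMM factors and DESeq2 most calls were lost and other regions were called, mostly in the other direction, for KLA in Pgc1b flox cells (2 and 2), KLA in Pgc1b flox Cre cells (3 and 3), NCoR with ERKi (3 and 5) and p300 on day 4 (11 and 4). Of single regions, Ndufv1 at 6 bp turned for NCoR with ERKi in DESeq2 (1.11), and Atp5d at -775 bp for p65 with TMM factors (-1.01). The cause was not tested. Without the filter the count was 2 for Pgc1b flox Cre against flox with KLA and 1 for the interaction of NKO with KLA.

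The replicate numbers did not pair the samples (correlation of deviations -0.0263 to 0.0213 over 31 pairs of groups). With the replicate number as a block the counts were 0 for PGC1β with KLA and DMSO, 0 for Pgc1b flox Cre against flox with Veh and 0 with KLA, 1 for KLA in WT cells and 0 for Fosl2, and 28 for RGFP966.

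Leaving out 1 library at a time gave counts of 18 to 35 for RGFP966, 0 to 5 for PGC1β with KLA, 0 to 3 for PGC1β with KLA and DMSO, and 0 to 4 for H3K27ac with KLA and DMSO. Counts were 2 to 4 for KLA in Pgc1b flox and in Pgc1b flox Cre cells, and 0 to 1 for flox Cre against flox with Veh, with KLA and for their interaction. For KLA they were 1 to 2 in WT cells and 0 to 1 in NKO cells. They were 0 to 1 for NKO against WT with Veh and 0 to 3 for the difference between the KLA responses. Factor counts were 1 to 14 for NCoR, 2 to 14 for NCoR with ERKi, 1 to 7 for HDAC3, 0 to 1 for ERK1, 6 to 16 for p300, 3 to 25 for p65, 0 to 9 for Fosl2, 0 to 1 for PU.1, 0 to 1 for ERK1 on day 4 and 0 to 10 for p300 on day 4.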
